A study of Catharanthus roseus with 15 samples.

Results

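The genes described here are those whose transcripts were lower in Catharanthus roseus leaves 3 h after methyl jasmonate (MJ) and close to the untreated level 3 h after ethephon (ETH). They numbered 136 of the 33829 genes in the count table. They were chosen from the measured values: CPM is a gene's count divided by the library's summed count, times 1000000, and the log2 ratio of a treated group is that of its mean CPM to the 0 h mean CPM, with 0.5 added to both. A member had a 0 h mean of at least 5 CPM, a log2 ratio of -1 or less at MJ 3 h and a log2 ratio within 0.5 of 0 at ETH 3 h. Its highest MJ 3 h library also lay below its lowest 0 h library and below its lowest ETH 3 h library. The values at MJ 3 h, ETH 3 h and 0 h therefore describe how the members were picked, and no test among those groups is offered as evidence about them.

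Leaf mRNA of the cultivar Vitae Rose Red was sequenced in 15 libraries, with 3 libraries in each of 5 groups. The groups were leaves 3 h and 24 h after a spray of 100 µM MJ, leaves 3 h and 24 h after a spray of 100 µM ETH, and leaves at 0 h labelled as control. No transgene or mutant was involved. Seedlings were 2 weeks old by the labels and 4 weeks old by the study's methods, and neither source says how many plants went into a library, so p-values measure the spread between these libraries only. Water-sprayed leaves at 3 h or 24 h were not analysed here, so time of day, spraying and hormone cannot be told apart in a comparison with 0 h, and all comparisons with 0 h share the same 3 control libraries.

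Jasmonates are lipid-derived hormones that plants make on wounding and herbivory. Their active form, jasmonoyl-isoleucine, binds the F-box receptor COI1, and JAZ repressors are then degraded, which frees MYC2 and related transcription factors. In many plants the same pathway slows growth and photosynthetic gene expression while defence genes are switched on, and in C. roseus it is known for raising the genes of monoterpenoid indole alkaloid synthesis. Ethephon breaks down in the tissue to ethylene, which acts through the EIN2 and EIN3/EIL proteins.

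Of the 13765 genes with a 0 h mean of at least 5 CPM, 1132 had a log2 ratio of -1 or less at MJ 3 h, and 965 of these also had all MJ 3 h libraries below all 0 h libraries. Most of the 965 were lower after ETH as well: 752 had a log2 ratio below -0.5 at ETH 3 h, 28 had one above 0.5 and 185 lay within 0.5. The requirement that MJ 3 h and ETH 3 h libraries do not overlap left 136 of the 185. The members had 0 h means between 5.02 and 2227 CPM (median 41.1). Their counts summed over the 3 MJ 3 h libraries were 74 to 69979 (median 1241). The smallest count of a member in any single library was 5, whose exact Poisson 95% interval of 1.62 to 11.7 covers counting error only.

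**Figure D1:**
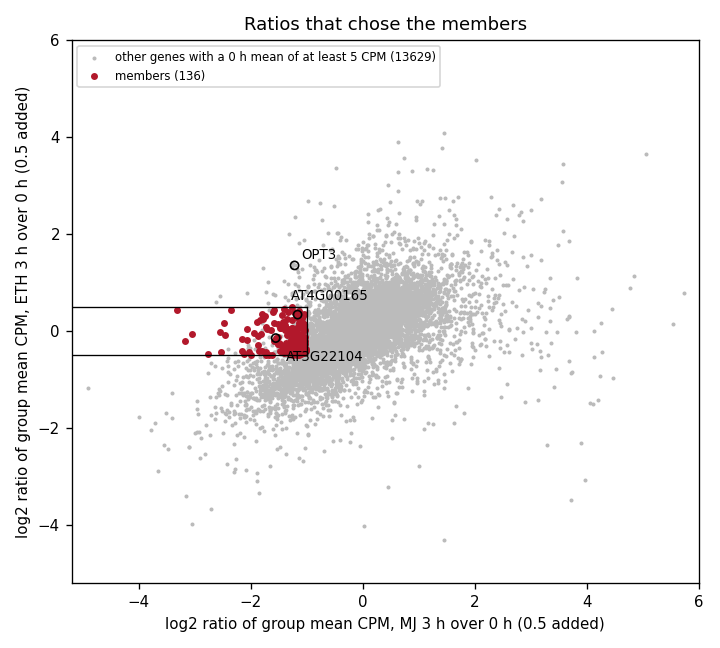
Log2 ratio of the group mean CPM of each gene at MJ 3 h over 0 h (horizontal) and at ETH 3 h over 0 h (vertical), for the genes with a 0 h mean of at least 5 CPM. The 136 members (red) lie in the outlined strip, since the ratios on both axes were used to choose them, and OPT3 (circled above the strip) had a log2 ratio of -1.22 at MJ 3 h and 1.36 at ETH 3 h.

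The thresholds cut through a continuous spread of genes. The member nearest to the MJ 3 h threshold had a log2 ratio of -1.01, against -0.997 for the nearest gene outside, and 480 genes failed on that condition alone. At the ETH 3 h threshold the nearest member lay 0.494 from 0 and the nearest gene outside just over 0.5, and 229 genes failed on that condition alone. The member with the lowest 0 h mean had 5.02 CPM, against 4.91 CPM for the nearest gene outside. An overlap of MJ 3 h with 0 h libraries alone kept out 14 genes, and an overlap with ETH 3 h libraries alone kept out 49. Membership was therefore loose at its edges: scaling the totals by TMM, a trimmed mean of gene-wise ratios between libraries, gave 105 members, of which 97 were among the 136.

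A name could be given to 2 of the 136 members, and the other 134 are known here by their CRO identifiers alone. Of the study's annotation 1022 lines were readable, and 539 genes among them had a symbol of the closest Arabidopsis gene. Together with the study's lists of transcription factors and pathway genes this named 639 genes, 420 of them with a 0 h mean of at least 5 CPM. The roles given below are those of the Arabidopsis genes. No sequence of a member was used here.

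CRO_000733 is closest to AT3G22104, a member of the NPH3 family, whose founding protein NPH3 works with the phototropin blue-light receptors in bending toward light. The study's annotation places it on cro_scaffold_3052923 at 24239 to 27208 on the minus strand, in a genome build that is not named there. It had 15.1, 7.98 and 9.0 CPM at MJ 3 h, against 39.6, 25.0 and 23.6 CPM at ETH 3 h and 33.9, 28.1 and 35.4 CPM at 0 h. All MJ 3 h libraries were below all libraries of the other groups at 0 h and 3 h, as the rule required. At 24 h it had 26.3, 20.5 and 15.8 CPM after MJ, against 39.3, 35.6 and 38.7 CPM after ETH. In CPM from library totals the 24 h groups did not overlap, and the MJ 24 h libraries also lay below the lowest 0 h library. Of all genes at 5 CPM or more, 24.8% had MJ 24 h wholly below ETH 24 h and 17.35% wholly below 0 h. TMM factors were 0.910 for the first MJ 24 h library and 1.06 for the second 0 h library. With TMM scaling the order against 0 h therefore does not hold. The log2 fold change at MJ 24 h against ETH 24 h was -0.72 (SE 0.247), which did not pass the test (adjusted p = 0.196 by edgeR's quasi-likelihood test, n = 3 each). Under limma voom with quality weights its adjusted p was 0.00886, and over the 12 alternatives run for it the adjusted p lay between 0.00886 and 0.465.

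CRO_000304 is closest to AT4G00165, of the bifunctional inhibitor/lipid-transfer protein/seed storage 2S albumin superfamily, small cysteine-rich proteins of which many are secreted. The study's annotation places it on cro_scaffold_3038419 at 1091 to 1450 on the plus strand, in the same unnamed build. It had 2.97, 3.08 and 0.483 CPM at MJ 3 h, against 6.13, 4.34 and 10.9 CPM at ETH 3 h and 5.25, 7.11 and 4.19 CPM at 0 h. The lowest MJ 3 h library holds 13 counts of it. At 24 h the libraries had 2.34, 5.43 and 6.33 CPM after MJ, against 8.21, 6.66 and 7.59 CPM after ETH. They did not overlap in CPM from library totals, as for 24.8% of all genes at 5 CPM or more with MJ lower. TMM factors were 0.991 for the third MJ 24 h library and 1.05 for the second ETH 24 h library. With TMM scaling these 2 groups therefore overlap. The log2 fold change at MJ 24 h against ETH 24 h was -0.56 (SE 0.544), within the spread between libraries (edgeR adjusted p = 0.715). It was also 1 of only 2 members not called lower at MJ 3 h against 0 h by edgeR.

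The lowest log2 ratios at MJ 3 h among members without a name were those of CRO_027623 and CRO_019212. CRO_027623 had 9.48, 8.45 and 3.75 CPM at MJ 3 h, against 42.2, 192 and 77.6 CPM at ETH 3 h and 86.6, 74.1 and 70.4 CPM at 0 h, a log2 ratio of -3.33. The ETH 3 h libraries of this gene spread widely, on both sides of the 0 h range. At 24 h it had 113, 80.5 and 95.3 CPM after MJ, against 36.4, 60.0 and 45.4 CPM after ETH. Its 24 h groups did not overlap, with MJ above ETH (log2 fold change 1.16, SE 0.468, edgeR adjusted p = 0.268), a difference that passed the test under limma voom and in a fit of these groups alone.

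CRO_019212 had 8.44, 15.8 and 0.446 CPM at MJ 3 h, against 19.96, 127 and 57.5 CPM at ETH 3 h and 79.5, 125 and 31.8 CPM at 0 h, a log2 ratio of -3.19. Its libraries differed several-fold within every group at 0 h and 3 h. At 24 h it had 44.3, 36.1 and 66.8 CPM after MJ, against 17.2, 29.0 and 4.81 CPM after ETH. These groups did not overlap, but their difference did not exceed the spread between libraries (log2 fold change 1.65, SE 0.960, edgeR adjusted p = 0.471).

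**Figure D2:**
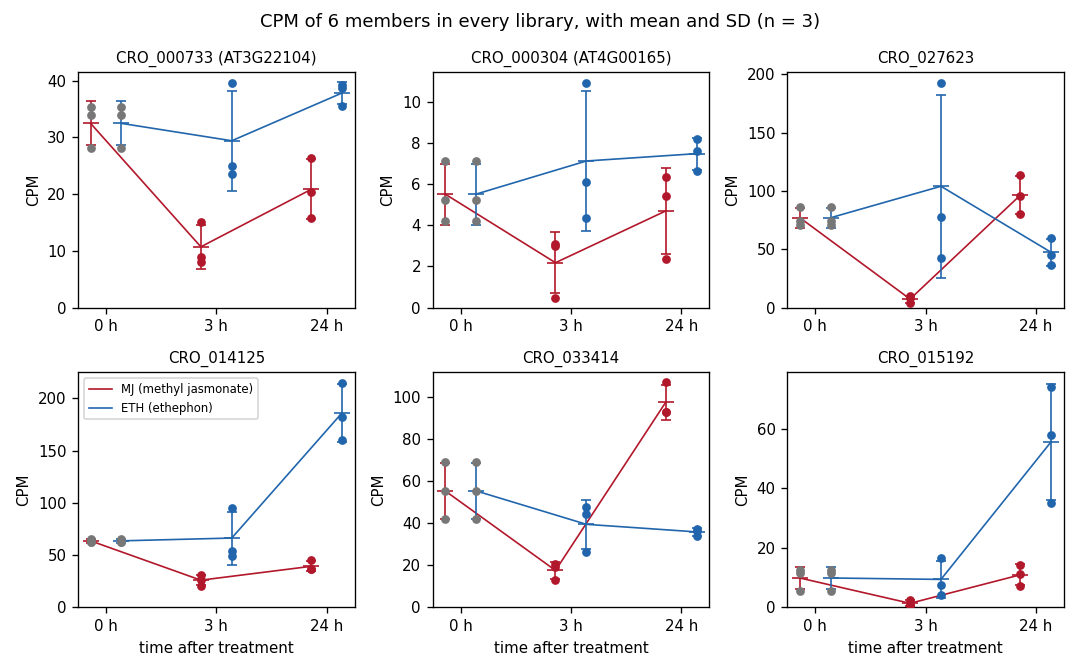
CPM of 6 members (vertical, from 0) at 0, 3 and 24 h after MJ (red) or ETH (blue); points are libraries, with the 0 h libraries in grey and drawn beside each hormone, and bars are the mean and SD (n = 3). All 6 are low at MJ 3 h by the rule, and at 24 h CRO_014125 had 36.3 to 44.9 CPM after MJ, against 160.4 to 215 CPM after ETH.

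Across the 136 members the log2 ratio at MJ 3 h was -3.33 to -1.01 (median -1.31), against -0.49 to 0.49 (median -0.08) at ETH 3 h. By library, the median member lay at -1.32, -1.24 and -1.62 at MJ 3 h, against -0.28, 0.03 and -0.11 at ETH 3 h, all relative to the 0 h mean. The third MJ 3 h library was the lowest of its group for 75 of the 136. edgeR called 134 members lower at MJ 3 h against 0 h, where 11.3% of the 18008 genes tested were called lower, and 95 lower at MJ 3 h against ETH 3 h, where 3.33% were. It called 1 member lower at ETH 3 h against 0 h, beside 7.14% of all genes. The rule set all of these counts, and nothing is read from them. Calls here and below need a change of more than 1.5-fold in either direction together with a Benjamini-Hochberg adjusted p under 0.05.

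**Figure D3:**
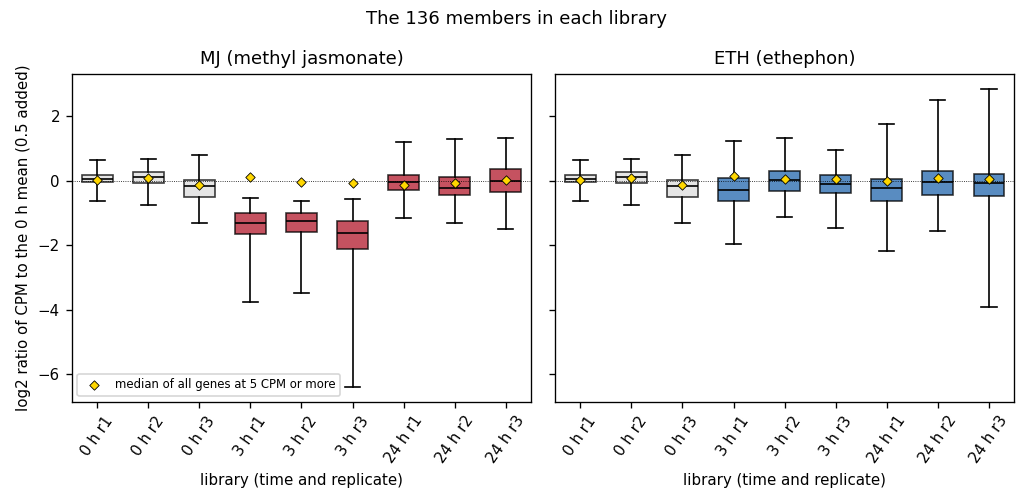
Log2 ratio of CPM to the 0 h mean (vertical) for the 136 members in each library of the MJ and ETH time courses; boxes span the quartiles with the median as a line, whiskers reach the lowest and highest member, and diamonds mark the median of all genes with a 0 h mean of at least 5 CPM. The members' medians are -1.32, -1.24 and -1.62 at MJ 3 h and between -0.22 and 0.01 at MJ 24 h.

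The members' values spread more between libraries than those of the median gene, a difference that was not tested. The median coefficient of variation of their CPM was 27.9% at MJ 3 h, 19.6% at MJ 24 h, 23.9% at ETH 3 h, 14.3% at ETH 24 h and 18.9% at 0 h. Over all genes with a 0 h mean of at least 5 CPM it was 19.0%, 15.3%, 15.8%, 8.68% and 14.5% in the same groups. The values at 0 h and 3 h come from libraries the rule used, while the 24 h libraries were not used.

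At 24 h after MJ the members lay near their 0 h level. By library, the median member lay at -0.04, -0.22 and 0.01 on the log2 scale relative to the 0 h mean, and 110 of the 136 lay within 0.5 (80.9%), over a range of -0.84 to 1.15. Of all genes at 5 CPM or more 83.2% lay within 0.5, so this closeness to 0 h is not particular to the members. For 128 of the 136 every MJ 24 h library was above every MJ 3 h library, where 15.4% of all genes at 5 CPM or more showed that order. Since members were chosen for low MJ 3 h values, a higher value at another time is in part set by the choice. The same holds for the 127 members called higher at MJ 24 h against MJ 3 h by edgeR, beside 9% of all genes tested. Against 0 h, edgeR called 0 members at MJ 24 h, beside 0.0278% of all genes tested, which is 5 genes. At an unadjusted p under 0.05 there were 13 members, beside 12.1% of all genes, and DESeq2 called 2 (1.47%, beside 1.37% of all genes) and limma voom 10 (7.35%, beside 5.06%). The members' median log2 fold change was 0.00 and that of all genes 0.00.

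At 24 h after ETH the median member lay at -0.21, -0.05 and -0.07 by library, and the log2 ratio to 0 h ran from -2.18 to 2.43. It was within 0.5 for 93 members (68.4%), at or below -0.5 for 28 (20.6%) and at or above 0.5 for 15 (11.03%), beside 80.1%, 11.2% and 8.72% of all genes at 5 CPM or more. The difference from all genes was not tested. edgeR called 7 members against 0 h (3 lower and 4 higher), beside 2.18% of all genes tested (0.855% lower and 1.33% higher), with log2 fold changes of -1.29 to -0.73 and of 0.82 to 2.44. With a single library left out 2 members were called, both among the 7, except that 4 were called without the third 0 h library, 3 of them among the 7. A block on the replicate number gave 3 calls, all among the 7. This comparison and that of MJ 24 h with 0 h use the same 0 h libraries as the rule.

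The largest called change at ETH 24 h against 0 h was that of CRO_015192, named here after its values were seen. It had 35.1, 58.0 and 73.8 CPM at ETH 24 h, against 12.5, 11.6 and 5.58 CPM at 0 h (log2 fold change 2.44, SE 0.580, edgeR adjusted p = 0.0494). The ETH 24 h libraries did not overlap with the 0 h libraries, although the adjusted p is close to the threshold. After MJ the gene had 0.924, 2.58 and 0.669 CPM at 3 h and 11.4, 7.31 and 14.2 CPM at 24 h. At MJ 24 h against ETH 24 h its log2 fold change was -2.21 (SE 0.574), with an adjusted p of 0.0899 by edgeR and 0.00422 by DESeq2.

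The comparison of MJ 24 h with ETH 24 h uses no library that chose the members, and asks whether genes chosen for low values at MJ 3 h and not at ETH 3 h differed between the hormones a day later. edgeR called 4 of the 136 (2.94%), 1 lower and 3 higher after MJ, beside 1.04% of all genes tested (0.6% lower and 0.439% higher) and 1.03% of those with a 0 h mean of at least 5 CPM. At an unadjusted p under 0.05 there were 39 members (11 lower and 28 higher), beside 14.8% of all genes tested. The members' median log2 fold change was 0.18, against 0.00 for all genes. With library totals in place of TMM, the median of all genes shifted to -0.13 and that of the members to 0.06, so the members lay above all genes by about the same amount. In CPM, the 24 h groups did not overlap for 23 members with MJ lower and for 32 with MJ higher, beside 24.8% and 7.61% of all genes at 5 CPM or more. The called count was 20 with DESeq2 (14.7%, beside 4.46% of all genes), 30 with limma voom (22.1%, beside 9.18%) and 17 in a fit of the 6 libraries alone (12.5%, beside 3.17%). It was 2 without the first MJ 24 h library or without any single ETH 24 h library.

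The member lower after MJ was CRO_014125, with 36.3, 44.9 and 36.7 CPM at MJ 24 h, against 182, 160.4 and 215 CPM at ETH 24 h. The log2 fold change was -2.11 (SE 0.207, edgeR adjusted p = 0.00119), and it was called under all 12 alternatives run for it. At 0 h it had 65.6, 62.9 and 62.5 CPM, so that the ETH 24 h libraries were above and the MJ 24 h libraries below the 0 h range. edgeR called the rise at ETH 24 h against 0 h (log2 fold change 1.47, SE 0.203, adjusted p = 0.0042) and not the MJ 24 h value against 0 h (-0.63, SE 0.200, adjusted p = 0.271).

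CRO_033414 went the other way. It had 107, 92.6 and 92.5 CPM at MJ 24 h, against 33.9, 37.4 and 36.2 CPM at ETH 24 h. The groups did not overlap, and the fold change on the log2 scale was 1.58 (SE 0.250, edgeR adjusted p = 0.0131). Its 0 h libraries, at 41.9, 55.2 and 68.8 CPM, lay between the 24 h groups, and neither 24 h group was called against 0 h. The call was lost when either the first or the second MJ 24 h library, or any ETH 24 h library, was left out (adjusted p up to 0.0818). At ETH 3 h the gene had 44.3, 26.1 and 47.8 CPM, a log2 ratio of -0.48, close to the edge of the rule. The edgeR log2 fold change at ETH 3 h against 0 h was -0.62 (SE 0.246, adjusted p = 0.106).

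CRO_011663 and CRO_024064 were also higher at MJ 24 h than at ETH 24 h, CRO_024064 being named after its values were seen. CRO_011663 had 233, 148 and 280 CPM at MJ 24 h, against 98.0, 104 and 91.4 CPM at ETH 24 h. Its log2 fold change was 1.30 (SE 0.251, edgeR adjusted p = 0.0351). The call held with DESeq2, limma voom, no filter, the 2 groups alone and without the second MJ 24 h library, and was lost in the other 7 of 12 alternatives (adjusted p up to 0.145). CRO_024064 had 66.5, 70.8 and 72.8 CPM at MJ 24 h, against 34.7, 34.1 and 33.7 CPM at ETH 24 h, with little spread in either group. Its log2 fold change was 1.16 (SE 0.142, edgeR adjusted p = 0.00338), and it was called under all 12 alternatives. Both were called lower at ETH 24 h against 0 h (-1.29 and -1.16 on the log2 scale), while their MJ 24 h fold changes against 0 h were 0.00 and 0.00. At ETH 3 h against 0 h their edgeR log2 fold changes were -0.42 and -0.50 (adjusted p = 0.264 and 0.0307). Neither reached the 1.5-fold threshold. Of the 4 members called between the hormones at 24 h, 3 were among the 7 called at ETH 24 h against 0 h, a comparison with the same ETH 24 h libraries.

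**Figure D4:**
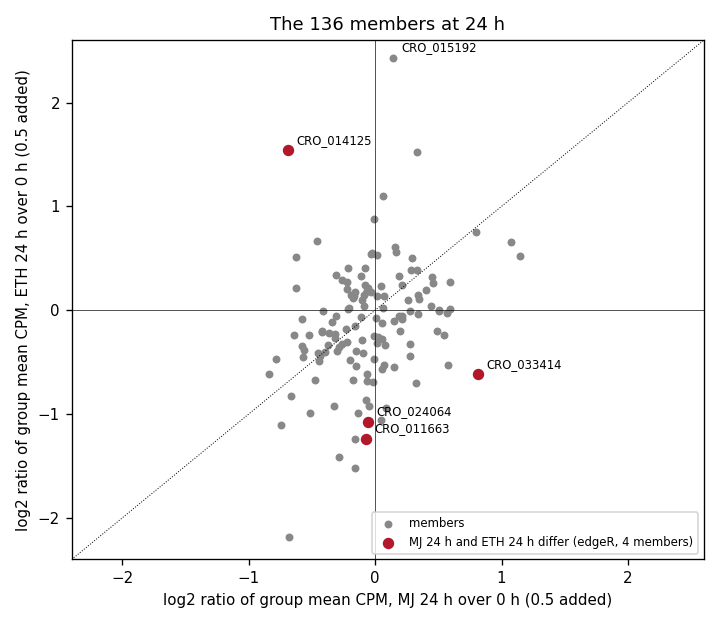
Log2 ratio of the group mean CPM of each of the 136 members at MJ 24 h over 0 h (horizontal) and at ETH 24 h over 0 h (vertical), with the line of equal ratios dotted. The 4 members that edgeR called between MJ 24 h and ETH 24 h are red, and the members span -0.84 to 1.15 on the MJ axis and -2.18 to 2.43 on the ETH axis.

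The genes lower at 3 h in both the MJ and the ETH libraries give a comparison group. They are the 375 genes with a log2 ratio of -1 or less at MJ 3 h and at ETH 3 h and no overlap of either group with 0 h. At MJ 24 h against 0 h the median log2 fold change was 0.00 for the members and -0.52 for the 375 genes. At ETH 24 h against 0 h it was -0.15 for the members and -0.79 for the 375 genes. edgeR called 0 of the 136 members lower at MJ 24 h against 0 h, and 1 of the 375 genes, beside 2 of all 18008 genes tested. It called 3 of the 136 members lower at ETH 24 h against 0 h, and 41 of the 375 genes, beside 0.855% of all genes tested. At MJ 24 h against ETH 24 h the members' median was 0.18 with 3 called higher and 1 lower. That of the 375 genes was 0.27 with 7 called higher and 0 lower. Of all genes tested, 0.439% were called higher and 0.6% lower. The difference between these sets was not tested, and both were chosen against the same 0 h libraries.

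Several genes with names fell just outside the rule. OPT3, an oligopeptide transporter known in Arabidopsis for moving iron in the phloem, was lower at MJ 3 h and higher at ETH 3 h. It had 51.7 ± 21.3 CPM at MJ 3 h and 311 ± 83.5 CPM at ETH 3 h, against 121 ± 16.6 CPM at 0 h (SD, n = 3 each). Its log2 ratio of 1.36 at ETH 3 h kept it out. NRT1:2, a nitrate transporter, had 2.19 ± 1.02 CPM at MJ 3 h and 5.42 ± 2.46 CPM at ETH 3 h, against 7.34 ± 0.421 CPM at 0 h, and its MJ 3 h and ETH 3 h libraries overlapped. The kinase gene AT2G23200 had a log2 ratio of -0.94 at MJ 3 h, the nearest to the threshold among named genes that failed on that ratio alone. CRR7, a subunit or assembly factor of the chloroplast NDH complex, had a log2 ratio of -1.25 at MJ 3 h and missed at ETH 3 h with -0.65. AT3G02125 met every condition but the 0 h level.

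The lists of related genes were read from the same 1022 readable lines and the study's named genes. Of the 5 light signalling genes, the only one called at MJ 3 h against 0 h was AT3G22104, which the rule had chosen for its low value there, so 0 of the other 4 were called. PIF4, a phytochrome-interacting growth factor, was lower at MJ 3 h than at ETH 3 h (log2 fold change -0.80, SE 0.224, edgeR adjusted p = 0.0472). Against 0 h it was called higher at ETH 3 h (1.03, SE 0.225, adjusted p = 0.0106) and was not called at MJ 3 h (0.23, SE 0.224, adjusted p = 0.471). At 24 h 0 of the 5 were called between the hormones, beside 1.04% of all genes tested. The lipid-transfer list had 3 genes, and only CRO_000304 could be tested. Of 8 membrane transporters tested, 2 were lower at MJ 3 h against 0 h, OPT3 (-1.25, SE 0.318, adjusted p = 0.0121) and NRT1:2 (-1.72, SE 0.447, adjusted p = 0.0135), and 1 was higher, the zinc transporter gene ZAT (0.79, SE 0.205, adjusted p = 0.0131).

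Of 15 protein kinases tested, 2 were lower and 0 higher at MJ 3 h against 0 h: AT2G23200 (-0.94, SE 0.184, adjusted p = 0.00321) and AT1G35710 (-0.81, SE 0.196, adjusted p = 0.00943). Of 5 cell wall genes 1 was lower, and of 4 alpha/beta-hydrolases and 4 auxin genes 0 were called at MJ 3 h against 0 h. Of 47 chloroplast genes 7 were called lower (14.9%) and 5 higher (10.6%), of 10 ribosomal protein genes 1 lower and 6 higher, and of 103 transcription factors 3 lower (2.91%) and 9 higher (8.74%). Over all genes tested 11.3% were called lower and 9.55% higher, so the shares of the chloroplast list and of the transcription factors called higher were near that of all genes, as was the 13.3% of kinases called lower. The median log2 fold changes were -0.24 for the chloroplast list, 0.71 for ribosomal proteins and 0.31 for transcription factors, against 0.05 for all genes tested. Many of the transcription factors came from the study's networks of genes expressed together in these same libraries. Their shares and median were therefore in part set by that choice. That list follows the study's labels and also holds ethylene signalling genes such as CTR1, EIN2 and EBF2. Apart from AT3G22104 and AT4G00165, none of the listed genes was a member. At MJ 24 h against 0 h, 0 genes of any of these 10 lists were called, beside 0.0278% of all genes tested, which is 5 genes. With so few calls over all genes, nothing is read from that count.

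Library totals were 23710688 to 31168281 counts (median 26443250). The jasmonate markers LOX2, a lipoxygenase of jasmonate synthesis, and FAD7, a plastid fatty acid desaturase, summed to 2421 to 5685 CPM at MJ 3 h and 104 to 228 CPM at MJ 24 h. They summed to 186 to 361 CPM at ETH 3 h, 190.1 to 261 CPM at ETH 24 h and 102 to 788 CPM at 0 h. The MJ 3 h libraries were thus above all others, and 0 h libraries were themselves spread. The 4 mesophyll markers, led by the photosystem gene PSAF, were at 1465 to 2802 CPM at MJ 3 h and 2844 to 5101 CPM at MJ 24 h, at 2285 to 3274 CPM at ETH 3 h and 2673 to 3371 CPM at ETH 24 h, and at 3387 to 5734 CPM at 0 h, and were detected in every library. Their sum and the members were thus both lower at MJ 3 h than at 0 h, although HCF107 alone of the 4 overlapped with 0 h there. The sum was also below every 0 h library at ETH 3 h, where the rule kept the members near 0 h. It was below every 0 h library at ETH 24 h too, where the median member lay at -0.21, -0.05 and -0.07 by library. The part of mesophyll content in the members' values was not tested.

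The first libraries of MJ 3 h and ETH 3 h stood apart in markers of young tissue. The 13 markers of young or dividing tissue summed to 499, 71.4 and 173 CPM in the MJ 3 h libraries, against 355, 108 and 86.8 CPM at ETH 3 h and 124 to 160.2 CPM at 0 h. SPCH was at 0 in 3 of the 15 libraries and PTL in 10, and the other 11 were above 0 in all. Most of these markers came from the study's network of genes expressed together in these same libraries. Their rising together was therefore in part set by that choice. HDG3 (214 CPM) and YAB2 (115 CPM) led the sum in the first MJ 3 h library. Of the division genes from outside that network, CDC45 had 12.4 CPM there (0 h 3.11 to 5.39), RNR2A 4.90 (1.72 to 3.71) and RFC2 15.1 (15.6 to 19.7). The first MJ 3 h library correlated best with the first ETH 3 h library (r = 0.943 across genes), and the second MJ 3 h library with the third ETH 3 h library (r = 0.953). The median member lay at -1.32 in the first MJ 3 h library and at -1.24 in the second, in which the young-tissue markers were lowest. Without both first libraries the rule gave 240 genes, which held 104 of the 136, and without the first MJ 3 h library alone 283, which held 123. The rule's conditions on overlap are easier to meet with fewer libraries, so larger numbers are in part set by the rule. In bulk leaf samples, fewer cells of a type and less RNA per cell cannot be told apart, and the part of tissue makeup in the members' values was not tested.

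**Figure D5:**
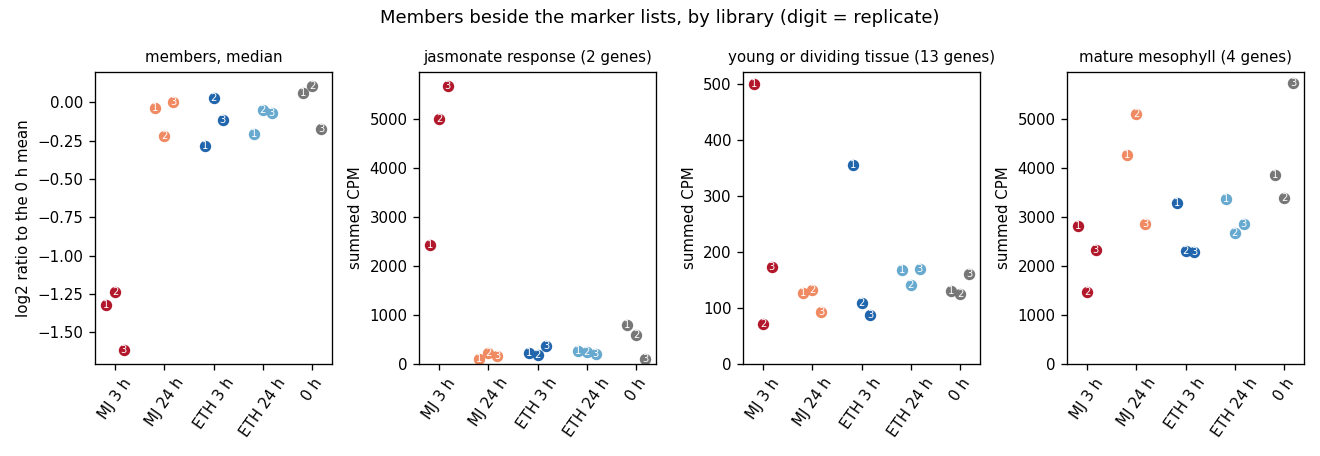
From left: the median log2 ratio of the 136 members to their 0 h mean, and the summed CPM of the jasmonate, young-tissue and mesophyll marker lists, in each library (digit = replicate) of MJ 3 h, MJ 24 h, ETH 3 h, ETH 24 h and 0 h. The members are low and the jasmonate markers high in all 3 MJ 3 h libraries. The young-tissue markers are highest in the first MJ 3 h (499 CPM) and first ETH 3 h (355 CPM) libraries. They are at 173 CPM in the third MJ 3 h library, against 124 to 160.2 CPM at 0 h.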

How the data were processed

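Per the labels and methods, stranded mRNA libraries of leaves were sequenced as paired reads. After trimming, the authors aligned reads with HISAT2 (version 2.0.4, from the submitters' processing notes) and deposited raw HTSeq counts per gene. The genome source used, of those they name, and HTSeq's strand setting are not given in the sources used here. Reads of a gene and of its antisense partner or a near-identical copy may therefore not be separable. The labels' extraction text names an animal brain region and was taken as text from another study. The table has 33829 genes, 0 unmapped columns and 0 rows without a gene. No pair of libraries was identical.

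edgeR 4.0.16 (R 4.3.3) kept 18008 genes by filterByExpr and fitted 1 quasi-likelihood model (5 group means, all 15 libraries), with TMM factors and Benjamini-Hochberg adjustment over all genes. The SE is the log2 fold change divided by the square root of F. The common biological coefficient of variation was 0.342. Alternatives used DESeq2 1.42.0, limma 3.58.1 (voom with quality weights), library totals, no filter, no fold threshold, fewer groups, a replicate block and single libraries left out. The functions were tested on simulated data.

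The members and lists were chosen with earlier results of these data known. Named genes are all members with a name, the 2 unnamed members with the lowest ratio at MJ 3 h, at most 2 higher and 2 lower unnamed members called at MJ 24 h against ETH 24 h, named genes just outside the rule, and LOX2 and FAD7. Unnamed genes have no annotation here: 0 of 37298 RefSeq lines matched the identifiers.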

Additional observations from a re-analysis of the deposited data

Results flagged for a closer look

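For 4 members the effects of the hormones at 24 h differed by a direct test of MJ 24 h against ETH 24 h with edgeR. The log2 differences, MJ 24 h minus ETH 24 h, were -2.11 for CRO_014125, 1.58 for CRO_033414, 1.30 for CRO_011663 and 1.16 for CRO_024064, with adjusted p-values of 0.00119, 0.0131, 0.0351 and 0.00338. All libraries of one hormone lay on the same side of all libraries of the other in each of the 4. Since the 4 were called from these same libraries, that order adds no separate evidence. In CPM, 24.8% of all genes at 5 CPM or more had MJ 24 h wholly below ETH 24 h, and 7.61% wholly above. CRO_014125 and CRO_024064 were called under all 12 alternatives run for them, CRO_033414 under 7 and CRO_011663 under 5. None of these genes has a name here. A test for single deviating libraries was not made, since each group holds 3.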

How the results depend on the processing

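The rule gave 137 to 283 genes when single libraries were left out, and 240 without the first MJ 3 h and ETH 3 h libraries. Its conditions on overlap are easier to meet with fewer libraries, so these larger numbers are in part set by the rule. Calls among the 136 members at MJ 24 h against ETH 24 h were 4, against 20 with DESeq2, 30 with limma voom, 17 with the 2 groups alone and 2 to 3 with a library left out. All genes called were 187, against 803 with DESeq2, 1654 with limma voom and 552 with the 2 groups alone. At MJ 24 h against 0 h, 0 were called, against 2 with DESeq2 (all genes 247) and 10 with limma voom (912), and 0 with any library left out. At ETH 24 h against 0 h, 7 were called (all genes 393), against 17 with DESeq2 (1129), 38 with limma voom (2765), 16 with the 2 groups alone (1175) and 2 to 4 with a library left out. At ETH 3 h against 0 h, 1 was called (all genes 2144), against 3 with DESeq2 (2797), 12 with limma voom (3975), 0 with library totals (2132), 4 with no fold threshold (2922), 0 with the 2 groups alone (1110), 0 to 7 with a library left out and 5 without both first 3 h libraries, a choice made after seeing the data. At MJ 3 h against ETH 3 h, 95 were called (all genes 1241), against 12 with the 2 groups alone (175). With a library left out there were 62 to 99. At MJ 24 h against MJ 3 h, 127 were called (all genes 2950), against 82 with the 2 groups alone (1143). With a library left out there were 104 to 120. The 134 called at MJ 3 h against 0 h (all genes 3750) were 99 with the 2 groups alone (2025) and 116 to 130 with a library left out. No named member changed sign at MJ 24 h against ETH 24 h. Other causes of these differences were not tested.

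Same-numbered libraries did not deviate together in every pair (r of -0.581 to 0.736, over 0.1 in 15 of 30 pairs). With 3 libraries per group this does not settle whether the numbers pair the libraries, and the main fit did not use them. A replicate block moved the calls to 3 at MJ 24 h against ETH 24 h, 3 at ETH 24 h against 0 h and 2 at ETH 3 h against 0 h. CRO_000304 had 13 to 93 counts in the MJ 3 h libraries, and what depth limits was not tested.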
